A study of Mus musculus with 6 samples.

Results

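Genes of autophagy and of the lysosomal membrane were read in liver RNA of mice that had received a vector for Nfkbiz or a control vector. The set holds 32 genes chosen by name for their roles in the pathway, of 18193 genes named on the array. The choice was made with earlier results of these data known. Each was read by all of its probe sets that the platform annotation gives exactly 1 gene symbol. By that rule 30 of the 32 genes had a probe set, with 73 probe sets in all. All 30 genes and 63 of their probe sets lay above an intensity filter that left out the lowest 40% of probe sets, those under an intensity of 47.4. The mitophagy receptor gene Bnip3l was read here only by probe sets that also carry the symbol of a pseudogene, so it was not analysed here, and neither was Optn, the gene of the cargo receptor optineurin.

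The livers came from C57BL/6 mice injected intravenously with AAV8, the adeno-associated virus serotype used most often to reach hepatocytes. The vector carried nfkbiz, the gene of the nuclear IκB protein IκBζ, in 3 mice and luciferase in the other 3. All 6 animals were put on CDAHFD 4 weeks after the injection and stayed on it for 4 weeks. This diet is high in fat, lacks choline and takes its protein as defined amino acids, and it produces fatty liver. Both groups therefore carried a vector and the diet, and there was no undosed or ordinary-diet group among the samples used. The sources used here do not state the vector's promoter, the sex and age of the mice or their feeding state at sampling.

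Macroautophagy encloses cytoplasm, lipid droplets or organelles in a double membrane and delivers them to the lysosome. The ULK1 kinase complex starts the process, the Beclin 1 and VPS34 lipid kinase complex and ATG9A vesicles build the membrane, and a ubiquitin-like conjugation system attaches LC3 and GABARAP proteins to it, to which cargo receptors such as p62 bind. In liver the pathway is known for its activity in fasting and for the breakdown of lipid droplets, and many of its genes are targets of the transcription factors TFEB and FOXO.

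Probe set 1448728_a_at of Nfkbiz, the gene on the tested vector, read 4424, 4073 and 2006 on the Nfkbiz arrays. On the luciferase arrays it read 221, 229.5 and 179.7. The level was 15.8 times that of the luciferase livers by limma (adjusted p = 0.000901 over probe sets). The other 2 probe sets of Nfkbiz did not pass the test. Of these, 1417483_at was taken as the brightest of the gene, and it stood at 0.30 ± 0.19 on the log2 scale with overlapping groups. Probe set 1457404_at stood at -0.89 ± 0.54, also with overlap. A count over brightest probe sets can therefore miss a change seen at another probe set, as here for the vector's own gene. All 10 hepatocyte markers on the array lay above the filter, with summed intensities of 296416 to 346603 in Nfkbiz livers and 302037 to 355818 in luciferase livers. The sums rest mostly on the brightest markers. By single marker, 5 differences were positive and 5 negative. At an unadjusted limma p under 0.05, 2 were lower, Hnf4a (log2 difference -0.35 ± 0.14) and Pck1 (-0.47 ± 0.15), and 0 higher. Over all genes 7.00% were lower at that level. On the second principal component of all genes the third luciferase array had a score of -45.1 and the other 5 had scores of 3.11 to 21.1. Summed intensities of 16 macrophage and Kupffer cell markers, all above the filter, lay between 72091 and 89506 in Nfkbiz livers and between 52233 and 66744 in luciferase livers.

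A single probe set of Atg7 fell, and no member passed the test at its brightest probe set. Of the 63 probe sets of the members, 1 passed limma's test at an adjusted p under 0.05 (1.59%), as lower, where 0.0703% of all 27022 probe sets were called in either direction and 0.0518% as lower. With each gene represented by its brightest probe set, limma called 0 of 30 members, where 0.225% of 13312 genes were called. At an unadjusted p under 0.05 there were 3 members lower (10.0%) and 0 higher, against 7.00% of all genes lower and 5.03% higher. The groups did not overlap for 5 members, all lower in Nfkbiz livers (16.7%), where 18.0% of all genes did not overlap in either direction and 10.0% were lower without overlap. Among probe sets, 4 of 63 were lower (6.35%) and 1 higher (1.59%) at the unadjusted level, against 6.47% and 4.14% of all probe sets, so these probe set counts lay near or below the background.

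The intervals bound the change at the brightest probe set of each gene, and not at its other probe sets. For 28 of the 30 genes the 95% confidence interval of the difference, from limma's moderated errors, lay inside a log2 change of 1 (2-fold) in either direction, as it did for 73.2% of all genes. The 2 exceptions were Ulk1 and Tfeb. For 22 members the interval lay inside a log2 change of 0.585 (1.5-fold), against 36.7% of all genes. These counts describe the brightest probe set of each gene, and the precision is set by 3 arrays a group. Atg7 is among the 28, although its dimmer probe set 1428611_at was at -1.96. The members' brightest probe sets lay at intensity percentiles of 58.3 to 99.2 among all probe sets, and limma's errors here follow an intensity trend. The shares of all genes were not taken at equal intensity, so the narrower intervals are not shown to be particular to the members.

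**Figure D1:**
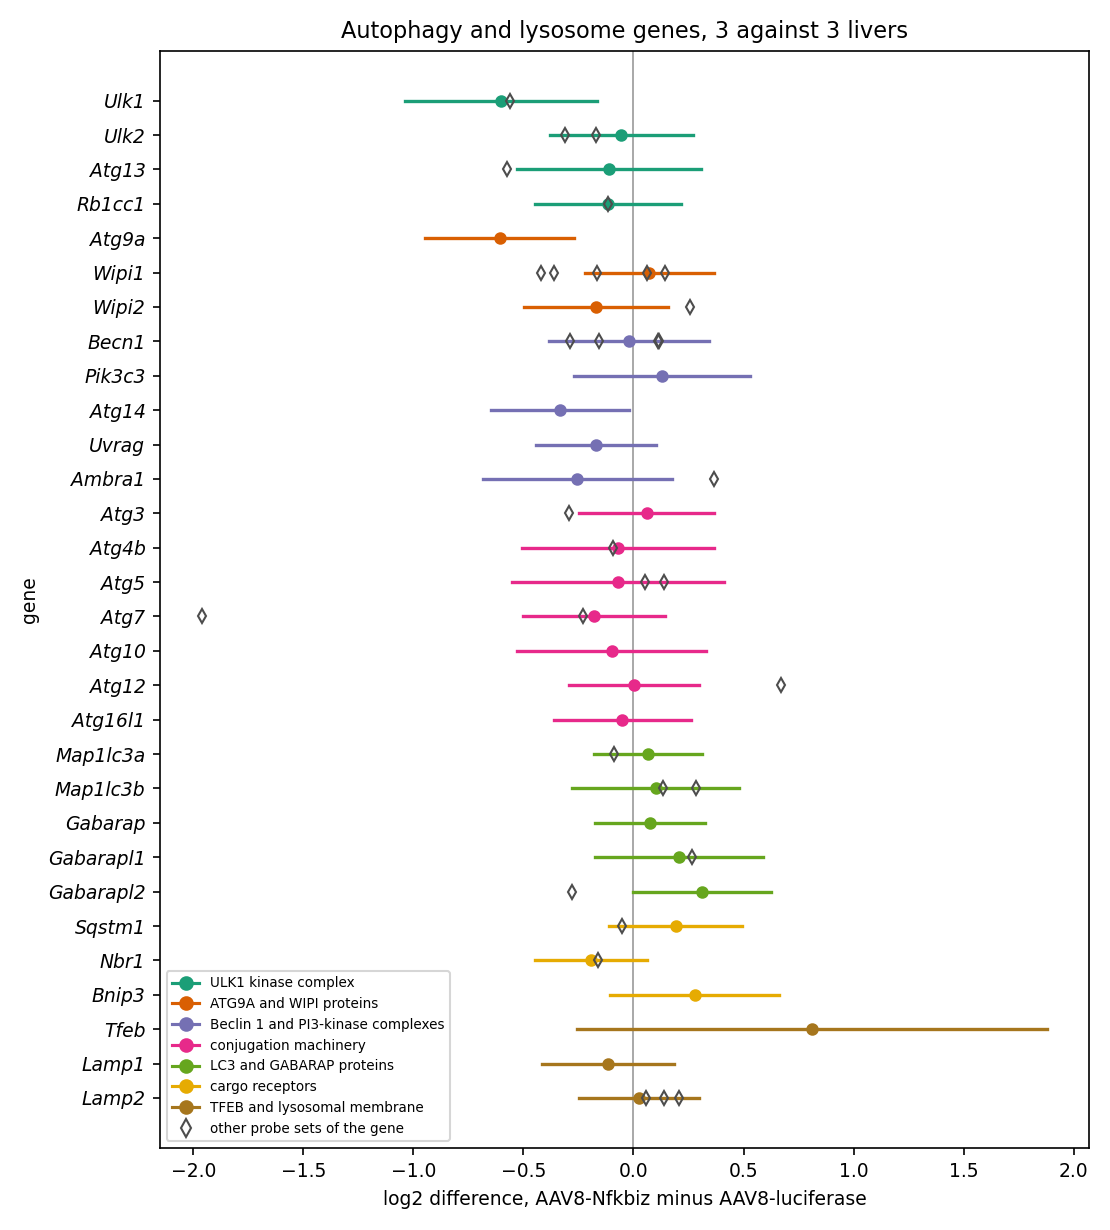
Log2 difference of each member between 3 AAV8-Nfkbiz and 3 AAV8-luciferase livers (x axis), with genes down the page in order of role. Filled circles with bars are the brightest probe set with its 95% confidence interval, and open diamonds are other probe sets above the filter. The diamond of Atg7 at -1.96 lies far from every other value, and most bars cross 0.

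Atg7 encodes the E1-like enzyme that activates both ATG12 and the LC3 and GABARAP proteins for conjugation. Its probe set 1428611_at read 73.8, 84.3 and 104 in Nfkbiz livers, against 396, 332 and 291 in luciferase livers. Every Nfkbiz array was below every luciferase array, and the means were 87.5 ± 15.5 and 339.5 ± 52.6 (SD, n = 3 each). The log2 difference was -1.96 ± 0.24 (SE, limma adjusted p = 0.0202 over 27022 probe sets), a level 0.257 times that of the luciferase livers, and the probe set ranked 15 by p among all probe sets. The Nfkbiz readings lay near the median of all probe sets on those arrays, 78.2 to 91.7. Whether they stood above background was not tested.

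The other Atg7 probe sets above the filter did not show this change. Probe set 1428612_at, the brightest, read 783, 799 and 722 in Nfkbiz livers, against 758, 918 and 943 in luciferase livers, and the groups overlapped. Its log2 difference was -0.18 ± 0.14 (limma adjusted p = 0.665 over genes, 95% interval -0.50 to 0.14). Probe set 1428610_at read 405, 318 and 322 in Nfkbiz livers and 405, 331 and 498 in luciferase livers, with a log2 difference of -0.23 ± 0.21. The annotation lists these 3 probe sets under the same sequence record, and the part of the transcript that each one reads is not stated in the sources. The call of 1428611_at was lost without the first Nfkbiz array (limma adjusted p = 0.0911), the second Nfkbiz array (0.0907), the first luciferase array (0.104) or the second (0.104), with the replicate number as a block (0.0614) and with a variance prior without intensity trend (0.127), while its difference stayed between -2.09 and -1.84 with any 1 array left out.

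**Figure D2:**
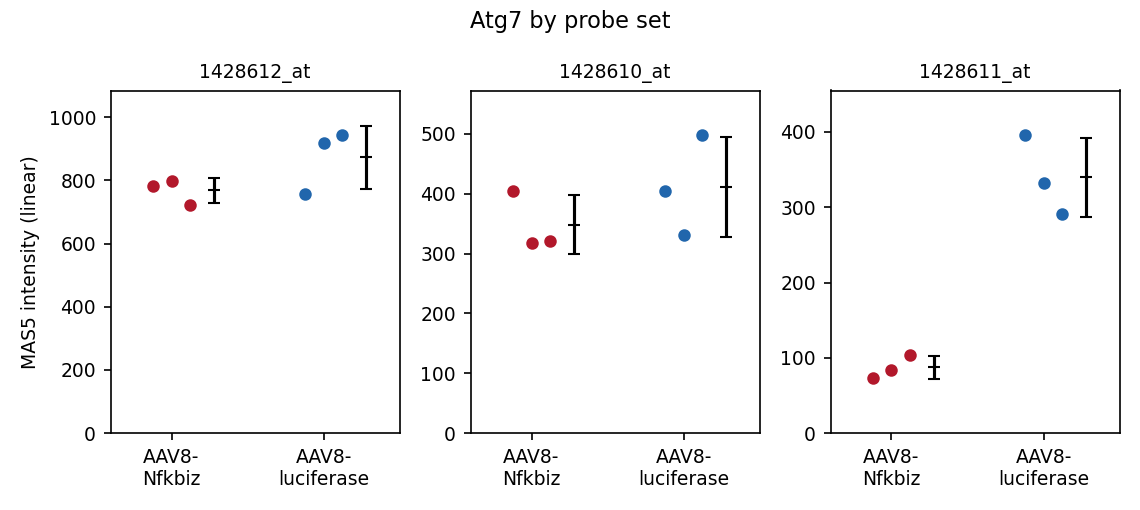
MAS5 intensity (linear axis from 0) of 3 Atg7 probe sets on each array, with the 3 AAV8-Nfkbiz livers left of the 3 AAV8-luciferase livers, and bars for mean ± SD. At 1428611_at the Nfkbiz livers lie at 73.8 to 104 and the luciferase livers at 291 to 396, while at the other 2 probe sets the groups overlap.

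The promoter of Atg7 is shown because its gene holds the called probe set, beside those of Atg9a, Ulk1 and Atg14, the 3 members with the smallest p at gene level. Each runs from 250 bases before to 50 bases after the RefSeq start, on build GRCm38.p6. Capitals mark CACGTG, the E-box core that TFEB and the clock factors CLOCK and BMAL1 bind.
Atg7, chr6:114670846-114671145, plus strand: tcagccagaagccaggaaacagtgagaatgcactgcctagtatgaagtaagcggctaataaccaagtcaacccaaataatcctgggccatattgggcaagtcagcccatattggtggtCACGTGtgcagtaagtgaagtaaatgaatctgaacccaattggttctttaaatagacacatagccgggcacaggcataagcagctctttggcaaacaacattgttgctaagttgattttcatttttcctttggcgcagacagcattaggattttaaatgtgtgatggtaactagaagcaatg
Atg9a, chr1:75191961-75192260, minus strand: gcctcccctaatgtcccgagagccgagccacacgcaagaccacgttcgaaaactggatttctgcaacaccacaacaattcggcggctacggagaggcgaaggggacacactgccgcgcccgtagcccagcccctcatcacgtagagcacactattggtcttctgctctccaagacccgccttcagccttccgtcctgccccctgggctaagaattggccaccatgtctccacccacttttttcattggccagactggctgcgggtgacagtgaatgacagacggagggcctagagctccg
Ulk1, chr5:110810032-110810331, minus strand: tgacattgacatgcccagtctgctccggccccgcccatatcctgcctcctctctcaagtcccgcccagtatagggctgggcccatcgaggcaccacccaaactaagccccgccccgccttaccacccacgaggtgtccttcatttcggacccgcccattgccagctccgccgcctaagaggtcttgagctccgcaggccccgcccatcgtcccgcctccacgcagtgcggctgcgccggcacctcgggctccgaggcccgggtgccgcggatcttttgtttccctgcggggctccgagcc
Atg14, chr14:47568385-47568684, minus strand: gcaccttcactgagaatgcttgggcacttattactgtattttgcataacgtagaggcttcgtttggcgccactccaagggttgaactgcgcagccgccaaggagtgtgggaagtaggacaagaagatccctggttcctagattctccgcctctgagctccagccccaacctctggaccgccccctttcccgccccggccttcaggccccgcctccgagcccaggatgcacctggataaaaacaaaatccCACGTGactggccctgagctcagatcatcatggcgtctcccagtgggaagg

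Promoters of the RefSeq table were found for 24 of the 30 measured members and searched on both strands for 4 motifs, of which the first 3 overlap. CACGTG occurred in 6 of the 24 (Atg3, Atg5, Atg7, Atg14, Bnip3 and Lamp1), where 8.09% of 27025 genes with a promoter hold it. With a GT flank, as GTCACGTG, it occurred in 4 (Atg3, Atg7, Atg14 and Lamp1), where 2.55% of genes do. The palindrome of the lysosomal CLEAR element, which is GTCACGTG followed by AC, occurred in 0 members and in 0.37% of genes, and the FOXO element TGTTTAC in 0 members and in 4.05% of genes. A match to letters is a description and says nothing of binding. The members with the GT flank did not share a difference at their brightest probe sets: Atg3 was at 0.06 and Lamp1 at -0.12 on the log2 scale, beside -0.18 for Atg7 and -0.33 for Atg14. The Atg3 promoter holds 2 flanked matches, of which the one farther from the start is shown, and Lamp1 holds 1. For each, 30 bases around the match are given, with the match in capitals.
Atg3, chr16:45158722-45158751, plus strand: ggcctccttttGTCACGTGtcctgggagag
Lamp1, chr8:13159122-13159151, plus strand: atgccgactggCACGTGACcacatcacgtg

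The 4 members of the ULK1 kinase complex had negative differences at their brightest probe set, and 0 of 4 passed limma's test over all genes. Ulk1, the kinase that starts autophagosome formation and is inhibited by mTORC1, read 879, 509.6 and 699 in Nfkbiz livers and 952, 1016 and 1134 in luciferase livers. The Nfkbiz arrays all lay below the luciferase arrays, the second of them lowest. The log2 difference was -0.60 ± 0.20 (SE, limma adjusted p = 0.272, 95% interval -1.04 to -0.16), and a dimmer probe set, 1416504_at, gave -0.56 ± 0.39 with groups that overlapped. The related kinase gene Ulk2 was at -0.055, the scaffold genes Atg13 and Rb1cc1 (FIP200) both at -0.11. Dimmer Ulk2 probe sets above the filter were at -0.31 ± 0.16 (1417846_at, without overlap) and -0.17 ± 0.15 (1448858_at). The dimmer Atg13 probe set 1423794_at was at -0.57 ± 0.31 with overlap, and that of Rb1cc1, 1449292_at, at -0.12 ± 0.16. None of these passed the test (limma adjusted p from 0.527 to 0.834 over probe sets). At its brightest probe set Ulk2 was at -0.15 without the third luciferase array. The sign of Ulk2 turned there without the second luciferase array, and that of Atg13 at its brightest probe set without the second Nfkbiz array.

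Atg9a had the smallest p of the members at gene level. It encodes the lipid scramblase whose vesicles seed the autophagosome membrane, and a single probe set reads it. It read 618, 583 and 768 in Nfkbiz livers and 920.5, 1044 and 1019.6 in luciferase livers, with no overlap. The log2 difference was -0.61 ± 0.15 (SE, limma adjusted p = 0.183, 95% interval -0.95 to -0.27), and it did not pass with any 1 array left out (adjusted p from 0.165 to 0.425). The genes of the phosphoinositide-binding proteins WIPI1 and WIPI2 were at 0.072 and -0.17, and each had probe sets of both signs. At Wipi2 the second probe set, 1428882_at, read 701, 753 and 732 in Nfkbiz livers, against 543, 608 and 685 in luciferase livers, a log2 difference of 0.26 ± 0.15 opposite in sign to the brighter one.

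Among the genes of the lipid kinase complexes, Atg14 and Uvrag differed without overlap and by small amounts. Atg14, the subunit that directs VPS34 to autophagosome formation, read 469, 479 and 450.3 in Nfkbiz livers and 599, 584 and 578 in luciferase livers. The replicates lay close together within each group, at 466 ± 14.7 and 587 ± 11.1 (SD, n = 3 each), and the log2 difference was -0.33 ± 0.14 (SE, limma adjusted p = 0.384, 95% interval -0.65 to -0.019). Uvrag, the subunit of the complex that acts on endosomes and on autophagosome maturation, read 1185, 1197 and 1177 in Nfkbiz livers, against 1349, 1394 and 1265 in luciferase livers (log2 difference -0.17 ± 0.12, limma adjusted p = 0.613).

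Becn1, Ambra1 and Pik3c3 did not separate the groups. Becn1, the gene of Beclin 1, read 1867, 1581 and 2178 in Nfkbiz livers and 1702, 1741 and 2265 in luciferase livers. Its log2 difference was -0.021 ± 0.16, with a 95% interval of -0.39 to 0.34, and its 5 probe sets lay between -0.29 and 0.12. Without the third luciferase array it was at 0.11. Ambra1, a positive regulator of Beclin 1, read 394, 327 and 298 in Nfkbiz livers and 478, 336 and 406 in luciferase livers (-0.25 ± 0.19), and the groups overlapped. Pik3c3, the gene of VPS34 itself, was at 0.13 ± 0.18, and at 0.011 without the third luciferase array.

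The remaining conjugation genes lay close to 0 at their brightest probe sets. Atg3, the E2-like enzyme for LC3, Atg10, the E2-like enzyme for ATG12, Atg4b, the protease that primes LC3, and Atg5, Atg12 and Atg16l1, whose products form the E3-like complex, ranged from -0.10 for Atg10 to 0.06 for Atg3, and the groups overlapped for each of the 6. Atg12 read 923 ± 39.6 in Nfkbiz livers and 923 ± 65.4 in luciferase livers (SD, n = 3 each). A dimmer Atg12 probe set, 1451746_a_at, was at 0.67 ± 0.29 (limma adjusted p = 0.455 over probe sets) with 500.3, 529 and 324 in Nfkbiz livers and 423, 240.3 and 209 in luciferase livers, so the 2 probe sets of that gene gave different values, without either passing the test.

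The LC3 and GABARAP genes, whose products are attached to the autophagosome membrane, all had positive differences at their brightest probe set, with 0 of 5 passing limma's test over all genes, and after quantile normalization Map1lc3a turned to -0.0015. Gabarapl2 (GATE-16) read 4168, 4389 and 3372 in Nfkbiz livers and 3279, 3441 and 2864 in luciferase livers. The third Nfkbiz array lay below the second luciferase array. The log2 difference was 0.31 ± 0.14 (SE, limma adjusted p = 0.417, 95% interval -0.0016 to 0.62), and a second probe set was at -0.28. Gabarapl1 read 8941, 8842 and 6412 in Nfkbiz livers and 6172, 8442 and 6321 in luciferase livers (0.21 ± 0.17), and its second probe set was at 0.27 ± 0.20.

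Map1lc3b, the gene of the LC3B protein used to count autophagosomes, read 8009, 7561 and 5807 in Nfkbiz livers and 5513, 6459 and 8019 in luciferase livers. The groups overlapped, with a log2 difference of 0.10 ± 0.17 (95% interval -0.28 to 0.48), and its other 2 probe sets above the filter were at 0.28 and 0.13. With the first luciferase array left out the brightest was at -0.028, and with the third left out at 0.24. Gabarap was at 0.075 ± 0.11 and Map1lc3a at 0.064 ± 0.11, where a second Map1lc3a probe set was at -0.088. LC3 lipidation and autophagic flux are protein measures and were not part of these data.

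**Figure D3:**
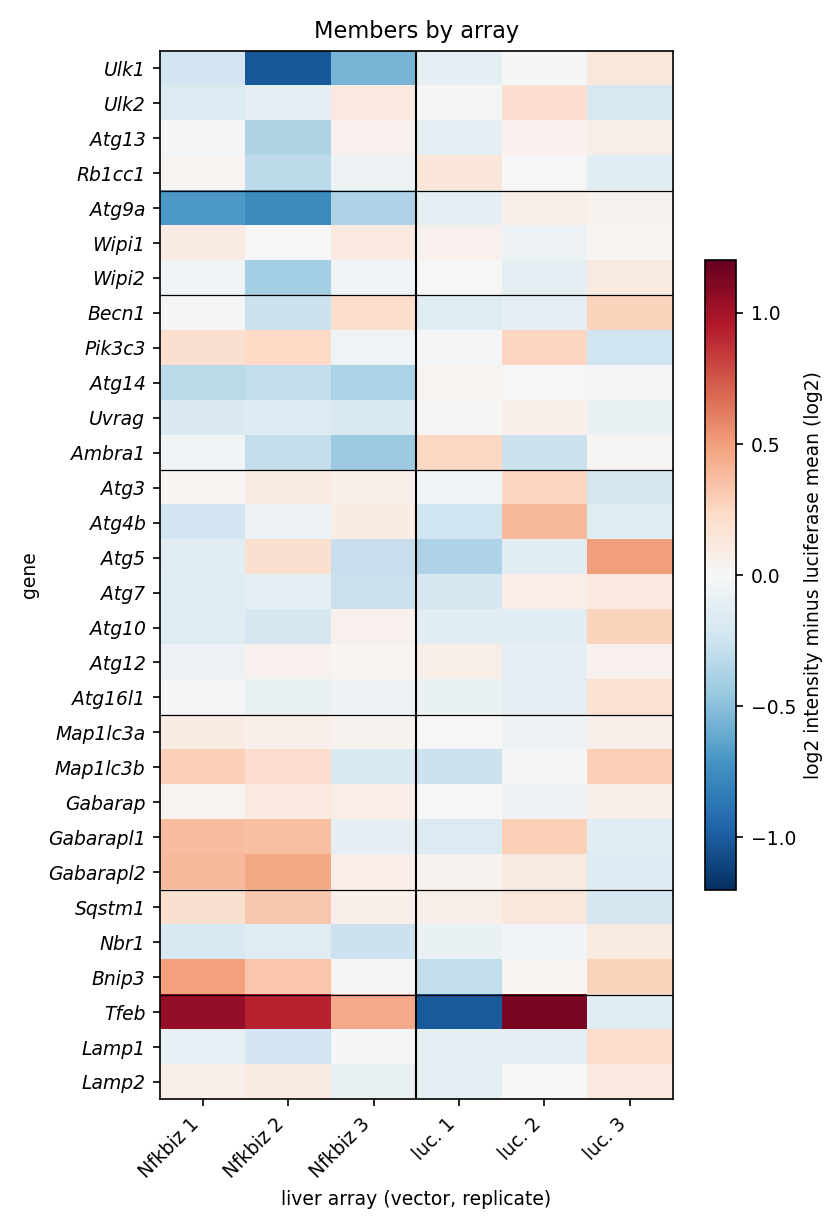
Log2 intensity of the brightest probe set of each of the 30 members on each array, minus the mean of the 3 AAV8-luciferase arrays (colour scale in log2 units), with the AAV8-Nfkbiz arrays left of the line and genes blocked by role. Ulk1, Atg9a, Wipi2, Atg14, Uvrag, Ambra1, Atg7, Atg16l1, Nbr1 and Lamp1 are below the luciferase mean on all 3 Nfkbiz arrays. Wipi1, Atg3, Map1lc3a, Gabarap, Gabarapl2, Sqstm1, Bnip3 and Tfeb are above it on all 3. Tfeb varies widely among the luciferase arrays.

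The cargo receptors did not move together. Sqstm1 encodes p62, which carries ubiquitinated cargo to LC3 and is itself degraded by autophagy. It read 10132, 11079 and 9212 in Nfkbiz livers and 9304, 9754 and 7640.5 in luciferase livers. The groups overlapped, and the log2 difference was 0.19 ± 0.14 (SE, limma adjusted p = 0.606, 95% interval -0.11 to 0.49). Without the third luciferase array the difference was 0.086. A dimmer Sqstm1 probe set, 1444021_at, was at -0.052 ± 0.34 with overlap. Nbr1, a receptor related to p62, read 6172, 6342 and 5853 in Nfkbiz livers and 6639, 6856 and 7516 in luciferase livers. The groups did not overlap there, with a log2 difference of -0.19 ± 0.11 (limma adjusted p = 0.539). A dimmer Nbr1 probe set, 1451897_a_at, was at -0.16 ± 0.22 with overlap. Bnip3, a mitophagy receptor induced by hypoxia, read 18111, 16297 and 13050.2 in Nfkbiz livers and 10546, 13112 and 15582 in luciferase livers (0.28 ± 0.17, limma adjusted p = 0.56), with overlap.

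Tfeb and the lysosomal membrane genes gave no call. Tfeb, the main transcriptional activator of lysosomal genes, read 191, 175 and 126 in Nfkbiz livers and 45.8, 203 and 84.7 in luciferase livers. The luciferase livers held both the lowest and the highest value, and the log2 difference of 0.81 ± 0.48 had a 95% interval from -0.26 to 1.88 (limma adjusted p = 0.536), and it ran from 0.31 to 1.38 with 1 array left out. That interval includes both no change and a 2-fold higher level.

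Lamp1, an abundant glycoprotein of the lysosomal membrane, read 17541, 16112 and 18539 in Nfkbiz livers and 17351, 17511 and 21981 in luciferase livers (log2 difference -0.12 ± 0.14). The third luciferase array was highest, and without it the difference was -0.0052. Lamp2, whose variants serve autophagosome fusion and chaperone-mediated autophagy, read 17618, 18254 and 15932 in Nfkbiz livers and 15581, 17017 and 18320.5 in luciferase livers (0.026 ± 0.12, 95% interval -0.25 to 0.30), with a difference of 0.082 without the third luciferase array. The groups overlapped for both genes at these probe sets, and the 4 probe sets of Lamp2 lay between 0.026 and 0.21.

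As a set, the 30 members had a median log2 difference of -0.053, with 17 negative and 13 positive, against -0.016 over all 13312 genes. Without the third luciferase array, the one that stood apart, the median was 0.019. The differences of probe sets of 1 gene often disagreed in sign: of the 20 genes with several probe sets above the filter, 11 had probe sets of a single sign and 9 had both.

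Genes around the pathway were read from 5 further lists of 139 measured genes, of which limma called 1, Foxo3, as lower and 0 as higher, where 0.158% and 0.0676% of all genes were called. At an unadjusted p under 0.05, 15 of the 139 were lower and 7 higher, where 7.00% of all genes were lower and 5.03% higher. The lists were chosen with earlier results of these data known, so the shares of all genes are not an independent comparison for them. Foxo3, a forkhead factor known to activate autophagy genes, read 447, 509 and 815 in Nfkbiz livers and 1614, 1765 and 1561 in luciferase livers. Its log2 difference was -1.53 ± 0.21 (SE, limma adjusted p = 0.0261), and the second probe set above the filter was at -0.81 ± 0.14. The call was lost without the first Nfkbiz array (adjusted p = 0.0807), the second (0.108), the first luciferase array (0.0548), the second (0.09) or the third (0.0615), and without the variance trend (0.312).

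The list that holds Foxo3, of 34 genes of nutrient and TFEB control, had 24 negative differences and a median of -0.19, with 5 lower and 0 higher at an unadjusted p under 0.05. Foxo1 was at -0.71 ± 0.18 (limma adjusted p = 0.183), and 2 of its dimmer probe sets were at -0.93 ± 0.16 and -0.92 ± 0.16 without passing (limma adjusted p = 0.0844 over probe sets for each). Fnip2, a partner of folliculin in amino acid sensing, was at -0.55 ± 0.16 (limma adjusted p = 0.211).

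Of 29 further core autophagy genes, 0 passed, with 5 lower and 3 higher at an unadjusted p under 0.05 and a median of -0.035, where 7.00% of all genes were lower and 5.03% higher at that level. Pik3r4, the regulatory subunit of VPS34, was at -0.68 ± 0.20, Atg101, the partner of ATG13, at 0.47 ± 0.16 and Wdr45b, the gene of WIPI3, at 0.44 ± 0.16 (limma adjusted p from 0.219 to 0.317). Atg101 belongs to the ULK1 complex, so the complex had values of both signs. Of 15 selective autophagy genes 0 passed, with 0 lower and 1 higher at the unadjusted level, and Fkbp8, a mitophagy receptor, was at 0.30 ± 0.13, Calcoco1, an ER-phagy receptor, at 0.35 ± 0.20 and Stbd1, a glycogen-binding receptor, at -0.22 ± 0.16.

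Of 34 lysosomal hydrolases 0 passed, with 2 lower and 2 higher at the unadjusted level and a median of -0.041. Ctsc, the gene of cathepsin C, which activates granule proteases of immune cells, read 8449, 9294 and 7586 in Nfkbiz livers and 5608, 6924 and 3656 in luciferase livers (0.69 ± 0.21, limma adjusted p = 0.238). Lgmn, the gene of legumain, was at 0.47 ± 0.19 (limma adjusted p = 0.354) and Arsa, the gene of arylsulfatase A, at -0.40 ± 0.14 (limma adjusted p = 0.299). For Ctsc and Lgmn the third luciferase array was lowest, and without it their differences were 0.43 and 0.24. A second Ctsc probe set, 1437939_s_at, read 375, 365 and 339 in Nfkbiz livers and 191, 130.4 and 139.9 in luciferase livers, without overlap (1.25 ± 0.22, limma adjusted p = 0.0844 over probe sets), and the remaining one was at 0.62 ± 0.38. Of the 16 macrophage and Kupffer cell markers, 14 had positive differences, 10 of them at an unadjusted p under 0.05, with a median of 0.59. At an adjusted p under 0.05, 0 of the 16 passed. Over all genes 5.03% were higher at the unadjusted level, and the median was -0.016. The part of these markers' cells in the values of Ctsc and Lgmn was not tested. In whole liver more cells of a type and more RNA per cell cannot be told apart.

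Of 27 genes of the lysosomal membrane and of the V-ATPase, the proton pump that acidifies the lysosome, 0 passed, with 3 lower and 1 higher at the unadjusted level and a median of -0.095. Npc1, the lysosomal cholesterol exporter, read 1184, 977 and 1206 in Nfkbiz livers and 1546, 1498 and 1719 in luciferase livers (-0.50 ± 0.14, limma adjusted p = 0.196). Clcn7, a lysosomal chloride-proton exchanger, was at -0.56 ± 0.16 (limma adjusted p = 0.197), but its second probe set was at -0.014. The V-ATPase subunit gene Atp6v0e was at 0.32 ± 0.11 (limma adjusted p = 0.291), with 7161, 7389 and 7383 in Nfkbiz livers and 5854, 6031 and 5692 in luciferase livers and no overlap.

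**Figure D4:**
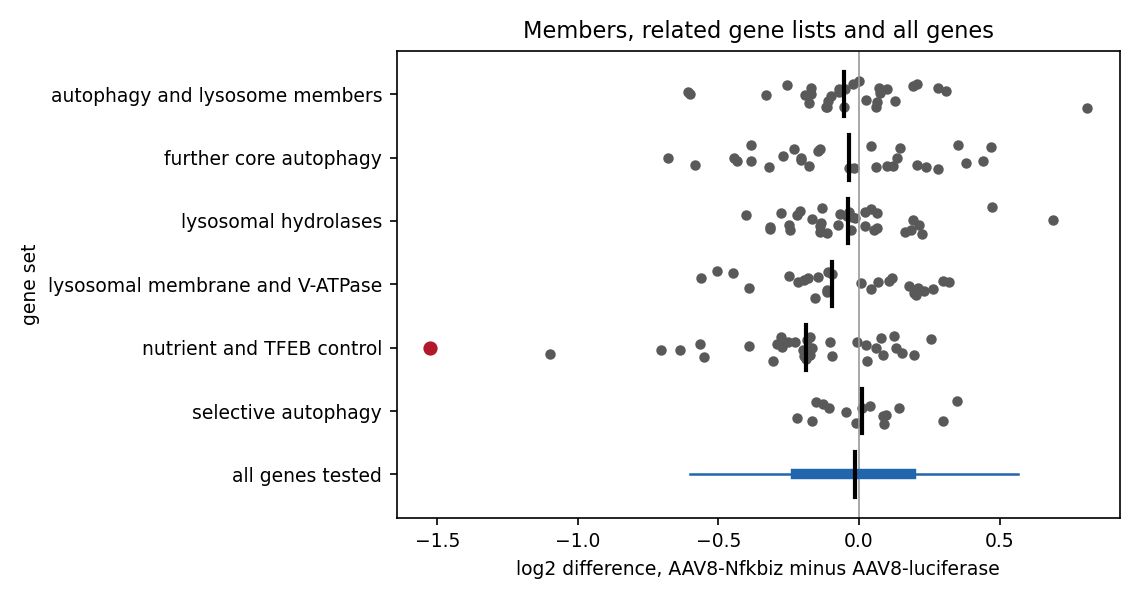
Log2 differences of the members and of 5 lists of related genes (1 point a gene at its brightest probe set, black line the median, red point a gene past the threshold), above all 13312 genes tested (thick bar 25th to 75th, thin bar 5th to 95th percentile). Foxo3 at -1.53 is the red point, and the medians of the members and lists lie between -0.19 and 0.0090.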

How the data were processed

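RNA of 6 livers was read on 1 Affymetrix 3' array each. The authors deposited linear signal intensity per probe set, made with MAS5 per the submitters' processing notes, which give no version. The mean of the middle 96% of intensities was 495.1 to 496.3 on every array.

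They were taken to log2 as deposited, without a pseudocount or another normalization. Genes were named through the platform annotation (34945 probe sets with 1 symbol, 932 with several, 9160 not listed). limma 3.58.1 in R 4.3.3 (eBayes with intensity trend) was fitted on 27022 probe sets above the filter and on 13312 genes, each represented by its brightest probe set, two-sided with Benjamini-Hochberg adjustment. Differences are AAV8-Nfkbiz minus AAV8-luciferase with moderated SE. The labels name separate samples only, so p-values reflect only how far these samples spread. The procedure was tested on simulated data. Figures used matplotlib 3.10.9.

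The members, lists, roles and motifs were chosen with earlier results of these data known. Named with values on every array were members with a called probe set, the 12 with the smallest gene-level p, and Sqstm1, Map1lc3b, Gabarapl1, Lamp1, Lamp2, Tfeb, Becn1 and Ulk1, and of each list the called genes and the 3 with the smallest p were named, some by their difference alone. Other probe sets and genes were named after their values were seen. Normalization, filter, pseudocount, variance prior, choice of probe set, a replicate block and each array left out were varied. Cell type marker lists had median log2 differences of -0.038 (hepatocyte, 10 markers), 0.31 (T and NK cell, 8), 0.53 (B and plasma cell, 5), 0.39 (neutrophil, 5), 0.33 (sinusoidal endothelium, 8), -0.15 (stellate cell, 9) and -0.64 (cholangiocyte, 3). The cholangiocyte markers were Krt19 at -0.92 ± 0.50, Epcam at -0.64 ± 0.25 and Sox9 at 0.052 ± 0.25. Some lists were dim, with summed intensities of 881 to 1782 for T and NK cells, 381 to 806 for B and plasma cells and 307 to 601 for cholangiocytes.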

Additional observations from a re-analysis of the deposited data

How the results depend on the processing

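At gene level no member was called under 15 of 16 alternatives, and 1, Atg7, was called with the most variable probe set (-1.96, limma adjusted p = 0.0277). That alternative and the mean of probe sets do not read the brightest probe set. With the mean of probe sets Atg7 was at -0.79 (limma adjusted p = 0.0912). The count of member probe sets called was 0 without the variance trend, and 0 to 1 with 1 array left out. With the replicate number as a block it was 0 as well (limma adjusted p = 0.0614 for Atg7 1428611_at). Same-numbered arrays correlated at -0.031, 0.073 and 0.011 in their deviations from the group means, so the numbers were not taken to pair the samples. The members' median ran from -0.091 to 0.019 with 1 array left out. Over all genes, 30 were called in the fit reported, 22 after median centring, 18 with the mean of probe sets, 13 with the most variable one, 0 without the variance trend and 8 to 19 with 1 array left out, and among probe sets 19 against 46 with the lowest 60% left out.

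Of 479 recomputed member differences 444 kept their direction and side of the threshold, 1 (Atg7) passed the threshold as above, and 34 changed sign, in 17 genes, none of them called. With the mean of probe sets the values were -0.12 for Atg3, 0.040 for Atg5, -0.012 for Map1lc3a, -0.11 for Wipi1, 0.044 for Wipi2 and 0.057 for Ambra1, and -0.12 for the list gene Calcoco1. With the most variable probe set they were -0.29 for Atg3, -0.088 for Map1lc3a, -0.28 for Gabarapl2, -0.052 for Sqstm1, 0.26 for Wipi2 and 0.37 for Ambra1, and -0.60 for Calcoco1. Median centring gave 0.013 for Becn1, quantile normalization 0.0059 for Atg16l1, -0.0015 for Map1lc3a and -0.078 for Lamp2, and cyclic loess -0.063 for Lamp2. With 1 array left out, Ulk2 ran from -0.15 to 0.044, Becn1 from -0.13 to 0.11, Atg3 from -0.044 to 0.19, Atg4b from -0.19 to 0.12, Atg5 from -0.26 to 0.18, Atg10 from -0.17 to 0.033, Atg12 from -0.059 to 0.036, Atg13 from -0.19 to 0.016, Atg16l1 from -0.11 to 0.043, Map1lc3b from -0.028 to 0.24 and Lamp2 from -0.034 to 0.083. The cause of these changes was not tested.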

Other observations

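Across the whole table, 18 of the 19 called probe sets carried 1 gene symbol, and 13 of these had another probe set of the same gene above the filter. For 11 of the 13, another probe set differed in the same direction at an unadjusted p under 0.05. The count is over probe sets, not genes. Lpin1, Lpin2 and Zbtb16 each enter it with 2 called probe sets, which count for each other. The other 2 of the 13 were 1428611_at of Atg7 and 1448728_a_at of Nfkbiz, the gene carried by the vector. Both were noticed after the values were seen, and no explanation was tested.

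The third Foxo3 probe set, 1450236_at, lay below the intensity filter by its mean and was not tested. It read 16.5, 15.6 and 22.8 in Nfkbiz livers and 112, 103 and 117 in luciferase livers. A dim Atg13 probe set below the filter, 1458666_at, read 37, 29.6 and 26.1 in Nfkbiz livers and 81.3, 62.7 and 54.2 in luciferase livers. The groups did not overlap there, and how often this occurs among probe sets below the filter was not counted. The brightest Atg13 probe set, 1423793_at, read 299, 236 and 315 against 279, 314 and 318. The third, 1423794_at, also above the filter, read 128, 190 and 266 against 337, 196 and 325, with overlap. Its log2 difference was -0.57 ± 0.31 (SE, limma adjusted p = 0.547 over probe sets).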
